A study of Mus musculus with 9 samples.

Results

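A set of 79 protein-coding mouse genes, out of 21253 gene IDs counted, was at its lowest 2 days after Apc was switched back on in tumour organoids and higher both before and later. The members were chosen from the measured levels: the mean of the controls and the mean at 7 days were each at least 1.4 times the mean at 2 days, the higher of them was at least 5 CPM, and all 3 samples of 2 days lay below all 6 others. Of the 21253 IDs, 10245 reached that level in a group, 83 met the numeric conditions, and 4 of these were set aside because their symbols start with Slc or Cyp. A level, in CPM, is the read count after median-ratio scaling of the libraries, set to a common library total, and the depth of the dip is the lower of the control and 7 days means divided by the 2 days mean. The drop at 2 days and the return at 7 days are the selection itself, so they are described without a test, and a counting interval beside a low count states its precision only. The level condition also fixed the direction at 7 days against control in 24 members. In 20 the control mean was under 5 CPM, so 7 days had to be higher, and in 4 the 7 days mean was under 5 CPM, so control had to be higher. For these the 7 days difference is likewise given without a p-value. In the other 55 the level condition did not set which of the outer groups is higher, and that difference was tested. The samples tested also took part in the choice. The fold condition still limited the direction where an outer mean was close to 1.4 times the 2 days mean. Control was 1.407 times it in Acp6, 1.421 in Gdf15, 1.434 in Mt2 and 1.448 in Vldlr, so 7 days could hardly be lower. In Sh3tc2 and Engase 7 days was 1.409 and 1.401 times it, so control could hardly be lower. The p-value of such a member is no free test of direction.

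The samples were poly(A) RNA of 1 line of AKP mouse tumour organoids carrying a doxycycline-driven hairpin against Apc. AKP is the usual name for intestinal tumour organoids that carry driver alterations besides loss of Apc, and the alleles are not described in the labels. Doxycycline was kept in the controls, whose Apc is off, and was withdrawn for 2 days or for 7 days in the other groups, which restores Apc. Each group had 3 samples, marked by the labels as technical replicates, and a p-value here speaks only to the variation among these samples, possibly technical. Every group carries the hairpin and the AKP background, and removal of the drug, return of Apc and time in culture cannot be told apart. Both times share the same controls.

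APC is the scaffold of the complex that marks beta-catenin for destruction. Without it, beta-catenin stays in the nucleus and holds intestinal cells in a crypt progenitor state, and when APC returns the Wnt program is shut off and cells can differentiate into absorptive and secretory types. The genes described here belong to no single pathway: they include aldehyde and retinol dehydrogenases, metallothioneins, clock and nuclear receptor genes, the alarmin Il33, cell surface receptors and regulators of the actin cytoskeleton.

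The libraries held 24143589 to 32277040 counts and 14925 to 15574 genes with a count. The share of counts in the 10 top genes was 12.02% to 13.8% at 7 days and 6.25% to 7.11% in the other samples. Setting scale by the library total alone moved the median gene by -0.44 on the log2 scale at 7 days against control, relative to median-ratio scaling. Summed levels of 9 epithelial markers ran from 9468 CPM in the lowest control to 36822 CPM in the highest 7 days sample. Fibroblast markers summed to at most 43.3 CPM with Lum at 0 counts, immune markers to at most 5.90 CPM, and endothelial markers to at most 2.98 CPM with Emcn at 0 counts. Nearly all of the fibroblast sum was Acta2, with means of 33.6 CPM in controls, 37.1 CPM at 2 days and 29.7 CPM at 7 days. Every other fibroblast marker had a mean of at most 0.559 CPM. Of 15 tuft cell markers, Ptgs1 made up nearly all of the sum, with means of 131 CPM in controls, 35.3 CPM at 2 days and 35.4 CPM at 7 days, and every other marker had a mean of at most 7.14 CPM. Of the erythroid markers, Hbb-bs fell from 11.9 to 0.674 CPM at 2 days and Hbb-bh1 from 8.82 to 0.789 CPM, and the others were at or under 0.131 CPM. In bulk RNA, fewer cells of a type and less RNA per cell cannot be told apart.

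Most dips were shallow. The median depth was 1.59, 24 members were under 1.5, 10 reached 2 and 3 reached 3. Controls were a median of 1.64 times the 2 days level (range 1.41 to 6.20), and 7 days was a median of 2.55 times it (range 1.401 to 874). The median coefficient of variation among the 3 samples was 9.05% in controls, 7.40% at 2 days and 8.28% at 7 days. The members closest to the threshold were Acp6 at 1.407, Ppp1r1b at 1.406 and Engase at 1.401, and the nearest genes left out were Cttnbp2nl at 1.397, Mmp24 at 1.396 and Adtrp at 1.396. The same rule turned over found 33 genes that peaked at 2 days.

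**Figure D1:**
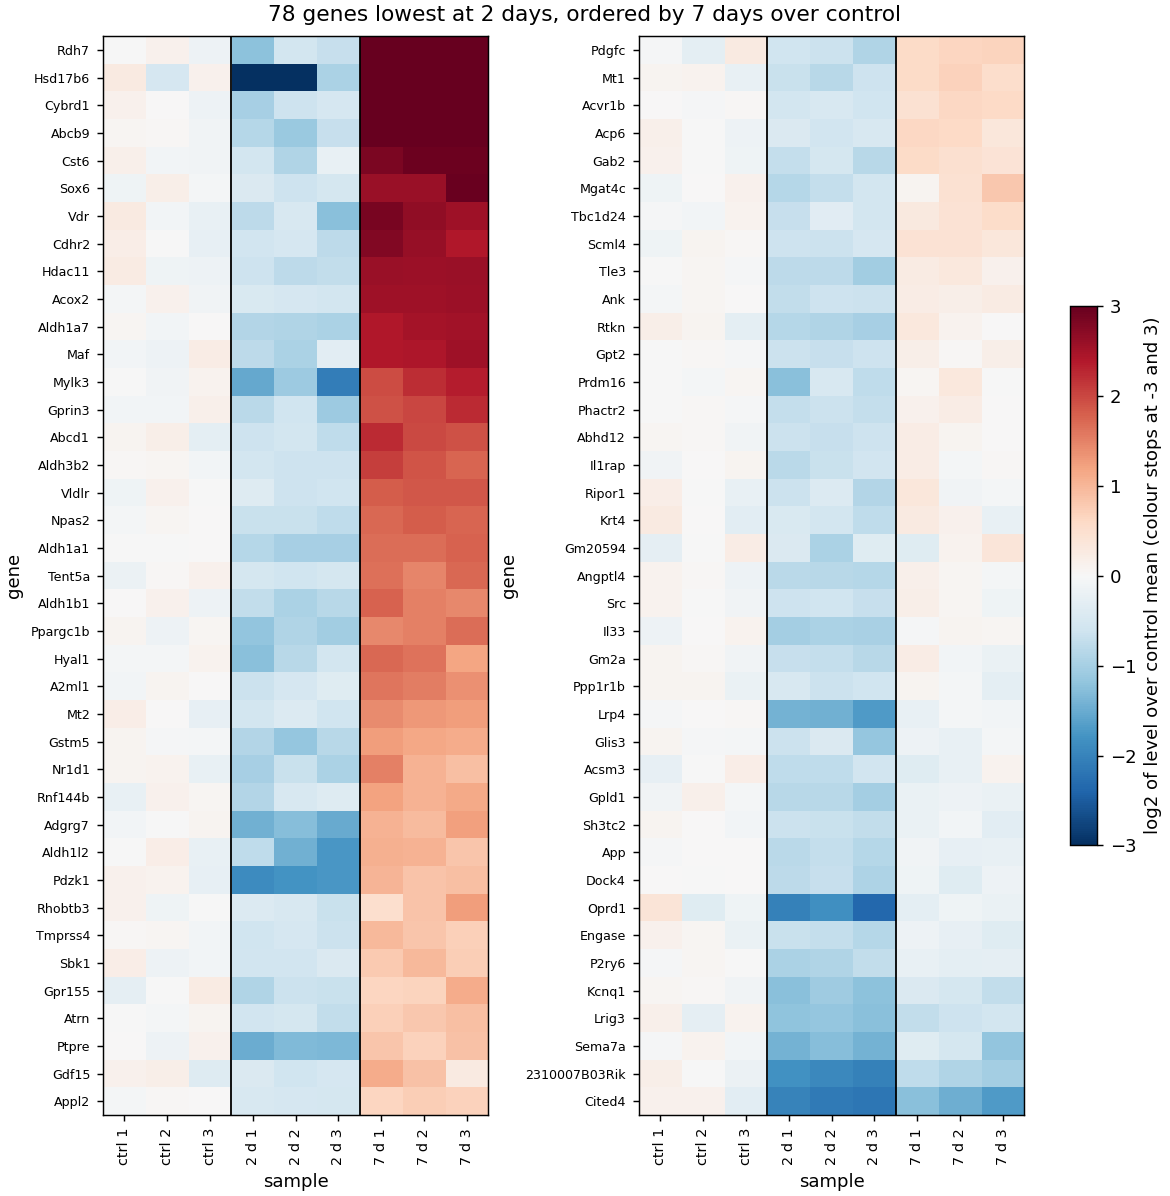
Level of 78 of the 79 genes (rows, in 2 panels, ordered by 7 days over control) in the 9 samples (columns), as log2 of the CPM over the control mean after adding 0.01 CPM to both, with the colour stopping at -3 and 3. The middle 3 columns of a panel, 2 days without doxycycline, are the lowest in every row, and the right 3 columns range from above control in Rdh7 to below it in Cited4.

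At 7 days the members fell into genes that came back to about the control level, genes that went past it and a few that stayed below it. The test was edgeR's quasi-likelihood test with Benjamini-Hochberg adjustment over 12535 genes. Of the 55 members free under the level condition, 28 were higher at 7 days than in controls and 8 were lower. The other 19 were not called. Of all genes tested, 82.3% were called in this comparison, 40.5% higher and 41.8% lower. The share of these members called is therefore not above the background, and since the rule removes genes that stay low at 7 days, the tilt towards higher calls cannot be read against it. Without control replicate 2 the count called lower was 5. The median log2 fold change of the 55 was 0.20, against -0.03 for all genes tested. Scaled by library total alone, 19 of the 55 were higher and 25 lower. Of the members whose call changed with that scale, 12 also turned in sign. Among them were Angptl4, Gpt2, Il1rap, Src, Krt4, Rtkn and Ripor1, which ended near control in the main scaling. With the 24 members whose direction was fixed, the same cut-off holds 48 members above control, 10 below and 21 neither, which in part restates the rule.

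By level, 26 members ended within 1.25-fold of control, 29 ended over 2-fold above it, 15 of these at least 4-fold, and 1, Cited4, ended over 2-fold below it. Among the 55, all 7 days samples lay above all controls in 28 and below them in 10, where 40.5% and 41.8% of tested genes did the same, and the samples of the other 17 overlapped.

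**Figure D2:**
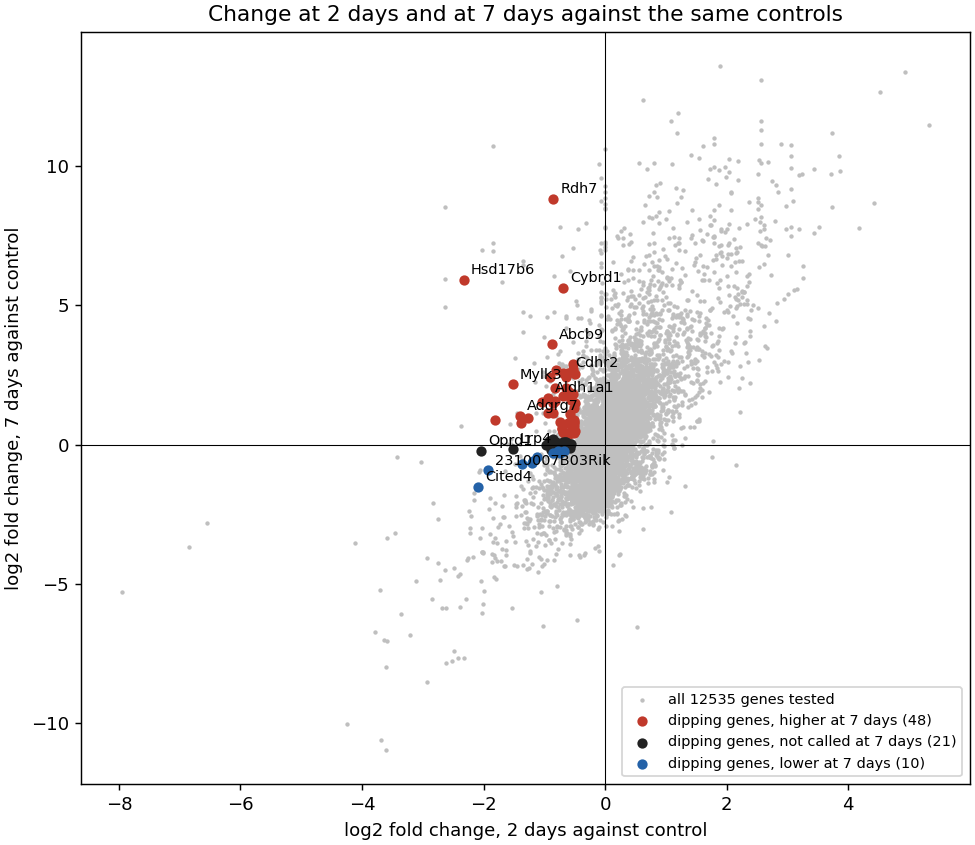
Log2 fold change against the same controls at 2 days (horizontal) and at 7 days (vertical) for all 12535 genes tested (grey) and for the 79 members, coloured by the edgeR call at 7 days, whose direction the selection fixed in 24. The members lie left of zero by selection, and vertically they spread from Cited4 at -1.51 to Rdh7 at 8.82.

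All 7 dehydrogenases ended above control, with a median dip of 1.88. In 4 of them (Hsd17b6, Rdh7, Aldh1l2 and Aldh3b2) the rule fixed that direction, and the other 3 were called higher in edgeR. Aldh1a1, which oxidises retinaldehyde to retinoic acid (chromosome 19, 20492715 to 20643465, plus strand, GRCm38), measured 197, 198 and 200 CPM in controls, 109, 99.5 and 99.3 CPM at 2 days, then 634, 636 and 680 CPM at 7 days. Its 3 groups did not overlap and each was tight. The edgeR log2 fold change at 7 days against control was 1.68 ± 0.08 (SE), adjusted p = 1.6e-11.

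Aldh1a7, a rodent relative of Aldh1a1, lies 49.5 kb away on the other strand (20692953 to 20727562) with no tested gene between them. It measured 18.2, 16.4 and 17.5 CPM in controls, 9.51, 9.23 and 8.98 CPM at 2 days, then 92.2, 97.5 and 99.0 CPM at 7 days. The neighbours thus moved in the same order, Aldh1a7 with the steeper rise: its edgeR log2 fold change at 7 days was 2.44 ± 0.08 (SE), adjusted p = 3.9e-13. In 50-base words, 6.54% of Aldh1a1 exon sequence also occurs in Aldh1a7 and 7.49% the other way, so a part of the reads could be shared. The 250 bases before the RefSeq start of each gene (GRCm38.p6) are shown because the pair moved together, and the capitals mark the longest run of bases found in both. For Aldh1a1, which has several annotated starts, the window is that of the last one, chr19:20601718-20601967 on the plus strand. For Aldh1a7 it is chr19:20727557-20727806 on the minus strand.
Aldh1a1: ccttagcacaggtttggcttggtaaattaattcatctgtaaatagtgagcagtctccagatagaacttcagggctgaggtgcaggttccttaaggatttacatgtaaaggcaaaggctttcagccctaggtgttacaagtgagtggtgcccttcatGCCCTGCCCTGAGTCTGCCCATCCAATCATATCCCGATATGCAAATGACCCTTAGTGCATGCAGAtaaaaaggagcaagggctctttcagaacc
Aldh1a7: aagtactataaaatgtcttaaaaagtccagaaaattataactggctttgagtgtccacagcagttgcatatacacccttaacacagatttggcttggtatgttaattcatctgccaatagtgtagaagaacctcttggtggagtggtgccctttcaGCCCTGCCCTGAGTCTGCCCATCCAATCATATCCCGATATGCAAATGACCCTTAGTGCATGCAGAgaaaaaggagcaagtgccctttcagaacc
The shared run is 65 bases long and sits at -94 to -30 from the start in both genes. Over the whole alignment, 176 of 268 columns, or 65.7%, are identical.

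Rdh7 and Hsd17b6, of the family of retinol and hydroxysteroid dehydrogenases, were both almost silent before 7 days. They lie 102 kb apart on chromosome 10 with no tested gene between them. Rdh7 had 14 counts over the 3 controls, 8 at 2 days and 5614 at 7 days, and its levels were 0.153, 0.170 and 0.138 CPM, then 0.0602, 0.101 and 0.0910 CPM, then 76.9, 71.0 and 72.5 CPM. The ratio of 2 days to control was 0.539, with a 95% exact counting interval of 0.196 to 1.38, so the depth does not tell the low groups apart. The 7 days level was 451-fold the control level in the edgeR fit.

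Hsd17b6, by the rule the deepest dip of the set at 6.20, had 4, 3 and 4 counts in the controls, 0, 0 and 2 at 2 days and 171, 196 and 227 at 7 days. Summed, that is 11, 2 and 594 counts, so the dip rests on very few reads. Its ratio of 2 days to control was 0.172, with a counting interval of 0.0185 to 0.786. Both genes share 50-base words with Rdh1, 9.82% of Rdh7 and 13.5% of Hsd17b6, so reads may be split among copies. The 7 days level of Hsd17b6 was 60.1-fold the control level in the edgeR fit.

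Aldh1l2, the mitochondrial enzyme that oxidises formyl-tetrahydrofolate, was low throughout, at 2.56, 2.94 and 2.21 CPM in controls, 1.505, 0.943 and 0.758 CPM at 2 days, then 5.42, 5.30 and 4.61 CPM at 7 days. Its dip of 2.41 was among the deepest, and every 7 days sample exceeded every control (log2 fold change 0.95 ± 0.18 SE). Aldh1b1, a mitochondrial aldehyde dehydrogenase, had means of 15.1 ± 1.55, 8.46 ± 0.607 and 45.2 ± 5.60 CPM (SD, n = 3 each). The lipid-associated aldehyde dehydrogenase Aldh3b2 went from 3.42 ± 0.179 to 2.26 ± 0.0751 to 12.8 ± 1.46 CPM (SD, n = 3 each), with 22.9% of its 50-base words also in Aldh3b3.

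Only Aldh1a1 and Vdr of the retinoid and nuclear receptor list are members. Besides these, 27 genes of the list were tested. At 2 days 13 of the 27 rose and 3 fell, and at 7 days 21 rose and 5 fell. Of all tested genes, 13.1% rose and 10.6% fell at 2 days, and 40.5% and 41.8% at 7 days. The same shares stand behind the list counts that follow. Aldh1a3, which makes the same product as Aldh1a1, had means of 5.498 CPM in controls, 13.1 CPM at 2 days and 16.0 CPM at 7 days, a rise already at 2 days (edgeR adjusted p = 3e-06). Dhrs3, which turns retinaldehyde back to retinol, went from 0.398 to 1.42 to 41.2 CPM, also a rise at 2 days (edgeR adjusted p = 0.00011). Stra6, a retinol importer, fell at 2 days from 4.29 to 1.04 CPM (edgeR adjusted p = 1.2e-06) and had a mean of 0.305 CPM at 7 days. Vdr, the vitamin D receptor, measured 2.64, 2.09 and 1.87 CPM in controls, 1.26, 1.58 and 0.910 CPM at 2 days, then 16.0, 14.02 and 12.9 CPM at 7 days. It ended 6.38-fold above control, a direction the rule fixed.

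Of the 7 genes for metal, glutathione and channels, 4 were called higher at 7 days and 1 lower, and in Cybrd1 and Abcb9 the rule fixed a higher level. The metallothioneins Mt1 and Mt2 bind zinc and copper and are neighbours on chromosome 8, 5.51 kb apart. Mt1 (94179082 to 94180327, plus strand) measured 92.2, 93.6 and 73.7 CPM in controls, 54.1, 48.7 and 55.9 CPM at 2 days, then 129, 139 and 124 CPM at 7 days. Mt2 (94172664 to 94173568, plus strand) was lower, at 8.11, 7.12 and 5.95 CPM, then 4.85, 5.29 and 4.64 CPM, then 18.9, 17.4 and 16.9 CPM. All 3 groups of either gene stood apart. The edgeR log2 fold change at 7 days was 0.57 ± 0.09 (SE, adjusted p = 4.2e-05) for Mt1 and 1.297 ± 0.11 (SE, adjusted p = 4e-08) for Mt2. Scaled by library total alone, Mt1 was no longer called (0.17, adjusted p = 0.094).

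The 250 bases before each RefSeq start (GRCm38.p6) are shown because the core of the metal response element, the site through which these genes are known to answer zinc, lies in both. The capitals mark matches to TGCACNC or TGCGCNC on either strand. The Mt1 window is chr8:94178839-94179088 and the Mt2 window chr8:94172368-94172617, both on the plus strand.
Mt1: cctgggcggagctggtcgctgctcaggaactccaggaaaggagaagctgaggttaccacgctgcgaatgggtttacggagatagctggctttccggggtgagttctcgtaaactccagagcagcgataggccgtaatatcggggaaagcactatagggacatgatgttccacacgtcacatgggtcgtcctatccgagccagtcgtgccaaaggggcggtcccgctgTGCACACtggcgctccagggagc
Mt2: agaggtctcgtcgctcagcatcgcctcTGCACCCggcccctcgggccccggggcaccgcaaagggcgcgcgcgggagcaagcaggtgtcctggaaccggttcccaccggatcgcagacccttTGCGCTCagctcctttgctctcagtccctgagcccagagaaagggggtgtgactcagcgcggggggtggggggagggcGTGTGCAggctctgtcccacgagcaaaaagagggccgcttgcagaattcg
There is 1 match in the Mt1 window and 3 in the Mt2 window. Just past these windows, Mt1 had further matches at 2 to 8 and at 20 to 26 from the start, and Mt2 had 1 at 4 to 10. The start used here and in the search below is the most upstream RefSeq start of a gene. The Mt2 window ends before the gene start given above. Over windows of 300 bases, from 250 before to 50 after the start, 26 of the 59 members with a RefSeq window held such a match, 44.1%, beside 35.8% of 9868 tested genes. The E-box CACGTG was in 11.9% of members and 10.1% of tested genes, the TCF/LEF element CTTTGAT or CTTTGAA in 3.39% and 5.96%, and the HNF4 core CAAAGTCC in 1.69% and 1.55%. No member window held the Rev-erb core TAGGTCA or the ATF4 core TGATGCAA, which are in 1.98% and 0.66% of tested genes. These are matches of letters on both strands and do not show binding.

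Gstm5, a glutathione transferase, measured 24.6, 22.9 and 22.6 CPM in controls, 12.6, 10.5 and 13.1 CPM at 2 days, then 55.6, 52.3 and 50.6 CPM at 7 days, a return to 2.21-fold above control (edgeR adjusted p = 9.2e-09). Cybrd1, the ferric reductase of the duodenal brush border, was 49.3-fold above control at 7 days, from 0.732 ± 0.0729 CPM in controls and 0.449 ± 0.0795 CPM at 2 days (SD, n = 3 each). Its 2 days dip rests on 43 counts against 66. The call of Ank, an exporter of ATP and pyrophosphate, was lost without any single 7 days sample and without control replicate 1 or 3. Abcb9, a lysosomal peptide transporter, had 2.41, 1.31 and 30.2 CPM in the group means and ended 12.2-fold above control. The potassium channel Kcnq1 was the exception, and it met the rule in 11 of 14 runs under other settings. It went from 65.4, 64.7 and 59.0 CPM to 26.6, 30.0 and 26.7 CPM and came back only to 46.9, 43.4 and 37.8 CPM, below every control (edgeR log2 fold change -0.59 ± 0.09 SE, adjusted p = 2.1e-05).

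**Figure D3:**
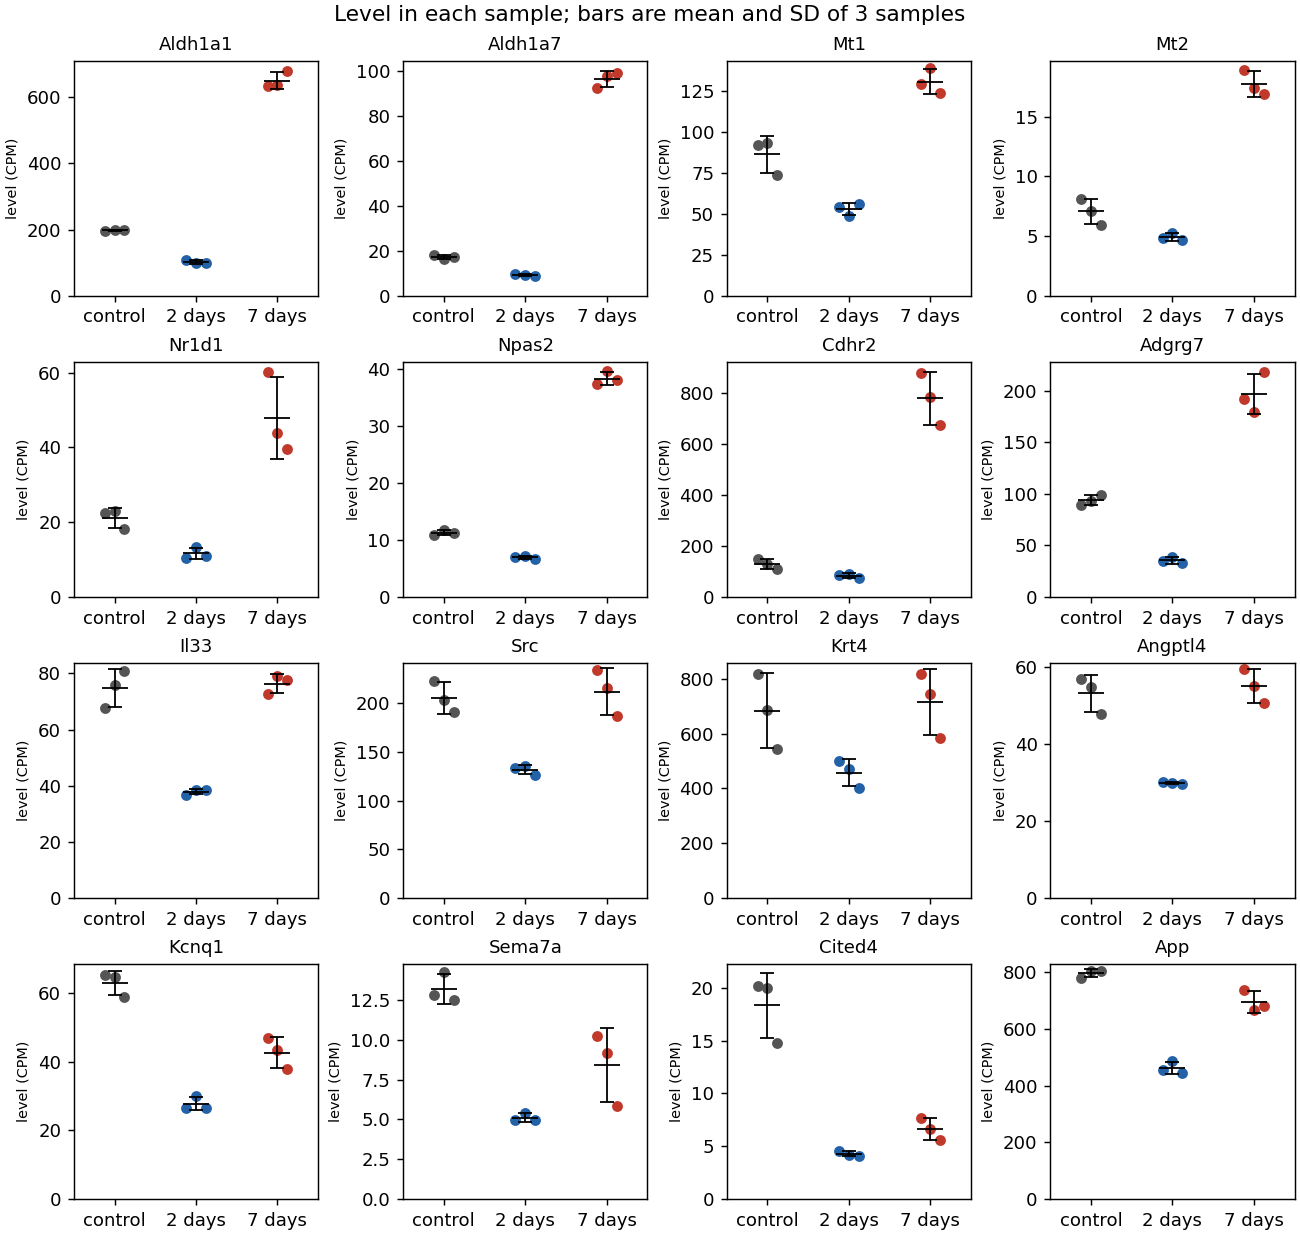
CPM of single samples (points, 3 per group, linear axes from 0) with mean and SD (bars) for 16 members. Aldh1a1 and Adgrg7 rise past the control level at 7 days, Il33 returns to it, and Cited4 and Kcnq1 remain below it.

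Genes of lipid and amino acid metabolism were split between those that returned and those that overshot: 4 of 11 were called higher at 7 days, 6 were not called, and in Ppargc1b the rule fixed a higher level. Ppargc1b, a coactivator of mitochondrial genes, had the deepest dip of the group at 2.07, with 4.44, 3.76 and 4.39 CPM in controls, 1.84, 2.22 and 2.03 CPM at 2 days, then 11.5, 12.1 and 13.5 CPM at 7 days. Its 7 days level was 2.89-fold the control level. Angptl4, an inhibitor of lipoprotein lipase, measured 56.9, 54.9 and 47.8 CPM, then 30.2, 29.9 and 29.6 CPM, then 59.6, 55.1 and 50.8 CPM. Its control and 7 days samples overlapped, and the edgeR log2 fold change between them was 0.02 ± 0.08 (SE, adjusted p = 0.83). Gm2a, the activator of ganglioside breakdown in lysosomes, likewise ended at -0.04 ± 0.10 on that scale (SE, adjusted p = 0.73), with group means of 30.3, 18.0 and 30.1 CPM.

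Of the Atf4 target list, which holds genes for amino acid supply and stress, 4 of 26 tested genes are members: Vldlr, Gpt2, Aldh1l2 and Gdf15. Of the 22 others, 9 fell and 1 rose at 2 days, and at 7 days 11 fell and 8 rose. The 7 days counts are near the background of 41.8% falling and 40.5% rising. Among the enzymes for serine and one-carbon units, Psat1 fell from 666 CPM in controls to 471 CPM at 2 days and 131 CPM at 7 days (edgeR adjusted p = 0.00046 and 1.8e-12), and Shmt2 from 452 to 313 to 120 CPM (edgeR adjusted p = 0.0046 and 8e-10). Vldlr, a lipoprotein receptor, instead had means of 6.26, 4.33 and 22.5 CPM and ended 3.50-fold above control (edgeR adjusted p = 2.5e-10). Gpt2, the mitochondrial alanine aminotransferase, measured 11.8, 12.2 and 11.6 CPM, then 7.53, 7.31 and 7.70 CPM, then 13.3, 12.2 and 13.4 CPM. Its return stopped near control, with an edgeR log2 fold change of 0.10 ± 0.09 (SE, adjusted p = 0.32).

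Of the 11 transcription regulators, 4 were called higher at 7 days than in controls, 1 lower and 2 were not called, and in the other 4 the rule fixed the direction. Nr1d1 encodes Rev-erb alpha, a clock repressor that is also a heme sensor, and measured 22.5, 22.9 and 18.2 CPM in controls, 10.5, 13.4 and 10.9 CPM at 2 days, then 60.3, 43.8 and 39.5 CPM at 7 days. Every 7 days sample exceeded every control, by 2.21-fold on average (edgeR adjusted p = 2.8e-06). Exons of Nr1d1 overlap Thra on the other strand. The library kit does not mark strand, so reads from the overlapping stretch cannot be told apart. The Thra means were 23.0, 19.1 and 52.8 CPM.

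Npas2, a partner of Arntl that can stand in for Clock, measured 10.8, 11.7 and 11.3 CPM, then 7.07, 7.11 and 6.67 CPM, then 37.3, 39.6 and 38.0 CPM. It ended 3.33-fold above control (edgeR adjusted p = 3.8e-11). Of the 14 other clock genes tested, 3 rose and 3 fell at 2 days, and 10 rose and 3 fell at 7 days. Dbp, a clock output gene, rose at 2 days from 0.966 to 2.18 CPM (edgeR adjusted p = 0.00034) and reached 15.1 CPM at 7 days. Tef, of the same family, fell at 2 days from 38.9 to 31.2 CPM (edgeR adjusted p = 0.019) and rose to 109 CPM at 7 days (edgeR adjusted p = 5.2e-10). No label gives the hour of collection.

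**Figure D4:**
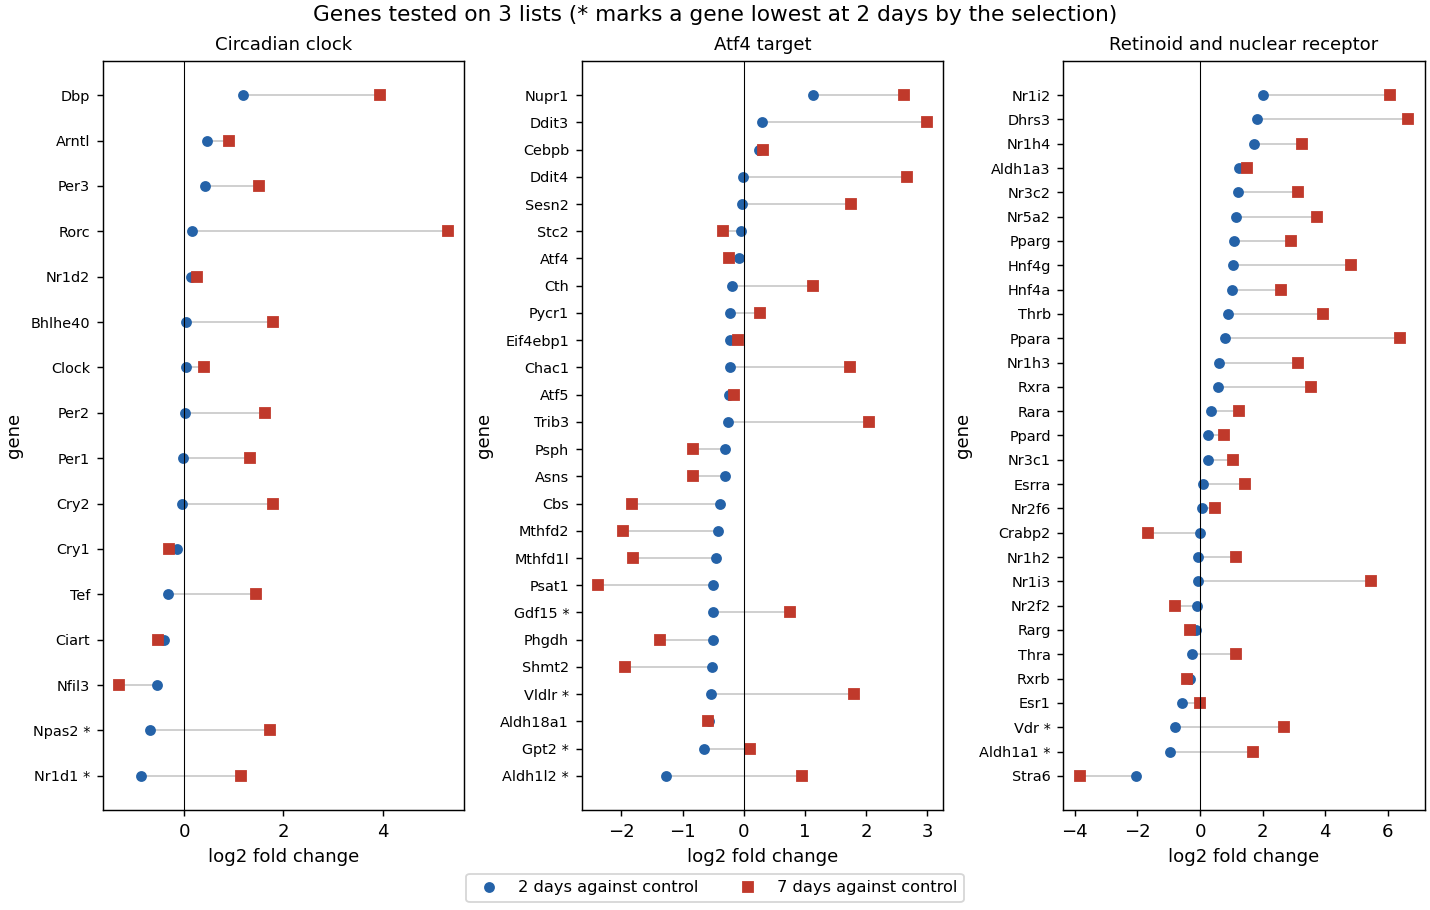
Log2 fold change against the same controls at 2 days (circles) and at 7 days (squares) for the tested genes of 3 lists, one panel each, ordered by the 2 days value, with an asterisk at the members. Vdr, Aldh1a1, Npas2, Nr1d1 and Aldh1l2 sit left of zero at 2 days and right of it at 7 days, while Psat1 and Shmt2 are further left at 7 days than at 2 days.

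Tle3, a Groucho corepressor that binds TCF factors, had a dip of 1.82 and measured 16.2, 16.8 and 15.8 CPM, then 9.45, 9.40 and 7.94 CPM, then 19.2, 20.3 and 17.9 CPM. All 7 days samples lay above the controls, but the change of 0.20 ± 0.10 (log2, SE) was not called in edgeR (adjusted p = 0.062). DESeq2 called it (adjusted p = 0.046), as did edgeR with DESeq2 size factors (adjusted p = 0.028) and with genes under a mean of 5 CPM left out (adjusted p = 0.038). EdgeR also called it without 7 days replicate 3 (adjusted p = 0.033) and without 2 days replicate 3 (adjusted p = 0.046). Tle3 stayed uncalled with limma-voom, with upper-quartile factors and with library totals alone. Sox6, a factor of the SoxD group, was 6.47-fold above control at 7 days, a direction the rule fixed, from means of 1.76 CPM in controls and 1.22 CPM at 2 days. Cited4, a coactivator that binds CBP and p300, was the opposite case. It fell from 20.2, 20.0 and 14.8 CPM to 4.55, 4.18 and 4.09 CPM and recovered only to 7.65, 6.61 and 5.60 CPM, 0.352 of control (edgeR log2 fold change -1.51 ± 0.14 SE, adjusted p = 5.7e-08).

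Of 5 secreted signals and precursors, 1 was called higher at 7 days, 2 lower and 1 was not called, and in Pdgfc the rule fixed a higher level. Il33, the epithelial alarmin of the interleukin-1 family, came back to the control level: 67.7, 75.8 and 80.9 CPM in controls, 36.8, 38.5 and 38.4 CPM at 2 days, then 72.5, 79.1 and 77.6 CPM at 7 days. The control and 7 days samples overlapped, with an edgeR log2 fold change of 0.00 ± 0.08 (SE, adjusted p = 0.98). Scaled by library total alone it was called lower at 7 days, at -0.40 (adjusted p = 0.0016). Il1rap, the coreceptor shared by interleukin-1 and interleukin-33 signalling, is also a member and went from 9.08 ± 0.539 to 5.65 ± 0.430 to 9.54 ± 0.911 CPM (SD, n = 3 each), with an edgeR log2 fold change of 0.03 ± 0.11 (SE, adjusted p = 0.77). Il33 is on the ERK feedback, fetal epithelium and inflammatory epithelium lists, and the others on these lists went different ways at 2 days. Of the 16 other tested genes of the inflammatory list, 12 rose at 2 days and 16 at 7 days. Of the 18 others on the ERK feedback list, 4 rose and 5 fell at 2 days, and of the 20 others on the fetal list 10 rose and 2 fell.

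Sema7a, a membrane-anchored semaphorin, fell from 12.8, 14.3 and 12.5 CPM to 4.94, 5.42 and 4.94 CPM and reached 10.2, 9.17 and 5.82 CPM at 7 days. The 7 days samples were spread but all below control (edgeR log2 fold change -0.69 ± 0.16 SE, adjusted p = 0.00073). App, the amyloid precursor protein and the member with the highest CPM averaged over the 9 samples, measured 781, 805 and 804 CPM, then 456, 487 and 443 CPM, then 738, 667 and 681 CPM, a return to 0.853 of control (edgeR adjusted p = 0.015). That call was lost without control replicate 2 (adjusted p = 0.052) and without 7 days replicate 2 (adjusted p = 0.075). Gdf15, a stress-induced relative of TGF-beta, had 10.6, 10.9 and 7.30 CPM in controls, 7.07, 6.40 and 6.82 CPM at 2 days, then 20.9, 17.7 and 11.6 CPM at 7 days. Its lowest control lay just above the highest 2 days sample, and its rise at 7 days was 1.70-fold (edgeR adjusted p = 0.0012). With library total alone as the scale, Gdf15 was no longer called (log2 fold change 0.355, edgeR adjusted p = 0.066). It met the rule in 8 of 14 runs under other settings.

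Receptors and signal transducers were the largest group, with 16 members, of which 5 were called higher at 7 days and 4 were not called. In the other 7 the rule fixed the direction. Oprd1, the delta opioid receptor, measured 6.96, 4.10 and 4.84 CPM in controls, 1.29, 1.48 and 1.03 CPM at 2 days, then 4.33, 4.81 and 4.61 CPM at 7 days. Its dip of 3.61 was the deepest after that of Hsd17b6, and its outer groups overlapped (log2 fold change -0.23 ± 0.18 SE). Adgrg7, an adhesion receptor of the intestine, measured 88.9, 93.3 and 98.5 CPM, then 34.6, 38.7 and 32.7 CPM, then 192, 180 and 218 CPM. Its 3 groups were far apart, with 7 days 2.05-fold above control (edgeR adjusted p = 4.1e-08).

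Lrp4, a receptor of the LDL receptor family that binds agrin and sclerostin, went from 11.1, 11.4 and 11.6 CPM to 4.21, 4.14 and 3.49 CPM and back to 9.66, 10.9 and 10.7 CPM. The 7 days samples lay just under the controls, a change that edgeR did not call (-0.15 ± 0.10 SE on the log2 scale, adjusted p = 0.19). Ptpre, a tyrosine phosphatase, measured 8.34, 7.43 and 9.14 CPM, then 2.95, 3.33 and 3.24 CPM, then 14.8, 13.5 and 15.3 CPM, ending 1.71-fold above control (edgeR adjusted p = 7.2e-06). The kinase Src returned to control from a milder dip of 1.56, with means of 205 ± 16.1, 132 ± 4.48 and 212 ± 23.9 CPM (SD, n = 3 each) and an edgeR log2 fold change of 0.01 ± 0.09 (SE, adjusted p = 0.90). Lrig3, a leucine-rich membrane protein, and P2ry6, a UDP receptor, ended at 0.634 and 0.814 of control, a direction the rule fixed.

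Of the 6 apical, keratin and protease genes, 2 were called higher at 7 days and 1 was not called, and in the other 3, Pdzk1, Cst6 and A2ml1, the rule fixed a higher level. Pdzk1, a scaffold for transporters under the brush border, measured 3.33, 3.28 and 2.56 CPM in controls, 0.813, 0.876 and 0.910 CPM at 2 days, then 6.17, 5.56 and 5.71 CPM at 7 days, a dip of 3.53 followed by a level 1.86-fold above control. Its exons overlap Gpr89, whose means were 55.0, 43.2 and 58.1 CPM, and without strand some of those reads could be counted for either gene. Cdhr2, a protocadherin of the links between microvilli, had 147, 127 and 108 CPM in controls, 86.0, 90.5 and 74.1 CPM at 2 days, then 875, 784 and 671 CPM at 7 days. It ended 5.96-fold above control (edgeR adjusted p = 3.9e-11). None of the 25 genes of the enterocyte list is a member: 10 rose at 2 days, and 25 rose at 7 days.

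Krt4, a keratin of squamous epithelia, had the highest level per length of the members, 290 CPM per kb of its longest transcript averaged over the 9 samples, ahead of Aldh1a1 at 134. In CPM it measured 819, 684 and 545 in controls, 501, 469 and 402 at 2 days and 819, 744 and 584 at 7 days. The outer groups overlapped (edgeR log2 fold change 0.04 ± 0.14 SE, adjusted p = 0.82), and the 2 days mean was under the lowest control by less than the spread among controls. Of the 15 other keratins tested, 6 rose at 2 days. The cysteine protease inhibitor Cst6 was 7.42-fold above control at 7 days, and its dip rests on 59 counts against 80. Tmprss4, a membrane serine protease, had means of 95.7, 64.3 and 172 CPM and ended 1.76-fold above control (edgeR adjusted p = 2.3e-07).

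Of the 9 regulators of the actin cytoskeleton and membrane traffic, 2 were called higher at 7 days, 2 lower and 4 were not called, and in Mylk3 the rule fixed a higher level. Mylk3, a myosin light chain kinase best known from heart, had the deepest dip of these, with 2.72, 2.54 and 2.91 CPM, then 0.933, 1.28 and 0.637 CPM, then 10.6, 12.7 and 14.1 CPM. It dipped 2.87-fold and ended 4.49-fold above control. Rtkn, which encodes rhotekin, an effector of small GTPases, measured 17.7, 16.7 and 12.9 CPM, then 8.67, 8.45 and 7.88 CPM, then 19.7, 17.1 and 15.9 CPM, with overlapping outer groups (edgeR log2 fold change 0.12 ± 0.12 SE, adjusted p = 0.36). Its exons overlap Wdr54. Ripor1, an inhibitor of small GTPase signalling, likewise ended at 0.03 ± 0.14 (log2, SE, edgeR adjusted p = 0.82).

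The 3 glycan enzymes differed. Hyal1, a hyaluronidase, had means of 1.74, 0.961 and 5.03 CPM and ended 2.81-fold above control. Its 7 days mean barely meets the level of the rule, it was found in 2 of 14 runs under other settings, and 63.1% of its 50-base words also occur in Naa80, which overlaps it on the same strand. Mgat4c, of the family of N-glycan branching enzymes, measured 24.5, 27.0 and 29.3 CPM, then 15.0, 16.5 and 18.5 CPM, then 28.6, 37.2 and 47.1 CPM, and was called higher at 7 days although the outer groups overlapped (edgeR log2 fold change 0.45 ± 0.14 SE, adjusted p = 0.0096). With a GC content of 35.3% it lies in a range where libraries differed: the median gene of the lowest GC bin deviated by -0.30 in 7 days replicate 1 and by 0.11 in 7 days replicate 3 (log2). Its call was lost without 7 days replicate 3 (adjusted p = 0.062). Engase, which cuts free N-glycans in the cytosol, ended at 0.819 of control (edgeR adjusted p = 0.014), and was not called without control replicate 1 or 2 (adjusted p = 0.059 for both) or 7 days replicate 3 (adjusted p = 0.054). It was found in 5 of the 14 runs.

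Members were found on 20 chromosomes. Within 500 kb of each other lay 7 pairs, 14 of the 79 members, and 3 of those pairs have no tested gene between them: Aldh1a1 with Aldh1a7, Mt1 with Mt2 and Rdh7 with Hsd17b6. Among the 33 genes that peaked at 2 days, 7 lay in 5 such pairs. The median GC content of the longest transcript was 51.1% for the members, 47.8% for the peaking genes and 49.7% for all genes tested, and the median length was 3906, 2055 and 3327 bases. No member is on the Wnt target, crypt-base stem cell, S phase, G2 and M phase or enterocyte list. Of 16 tested Wnt targets 14 fell at 2 days and 15 at 7 days, and of 18 tested stem cell genes 15 fell at 2 days and 16 at 7 days. In all, 10 members are on 7 of the 40 lists.

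The set depends in part on scale and on single samples. Found again in each of the 9 runs that leave out 1 sample were 57 of the 79 members, and 34 were found in all 14 runs that change the scaling, thin the libraries, remove a GC trend or leave out a sample. With library totals alone 44 of the 79 met the rule, and 35 were lost. The lost were 9 of the 10 members past the edgeR cut-off and below control, 10 of the 48 above it and 16 of the 21 others. With a GC trend removed 64 members were kept, and the lost were 6 of these 10, 4 of the 48 and 5 of the 21.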

How the data were processed

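Poly(A) RNA of 9 samples in 3 groups, taken from the sample labels, was analysed. Per the labels' protocols, RNA was isolated with a column kit and libraries were made with a NEBNext Ultra II RNA kit, which does not mark strand. The values the authors deposited are raw read counts per gene, in 1 table. Per the submitters' processing notes, STAR 2.7.0e, featureCounts and DESeq2 were used, with builds mm10 and GRCm38. Neither the annotation release nor the strand setting is given in the sources used here. Symbols, coordinates, length and GC came from GENCODE M21 and promoter windows from RefSeq (GRCm38.p6), which held 59 of the 79 members.

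The members and lists were chosen with earlier results of these data known, and roles were assigned by hand after the members were known. Levels are counts divided by median-ratio size factors and multiplied to the mean library total (CPM). All 79 members passed filterByExpr, which kept 12535 genes. Counts of these were scaled by TMM and tested in edgeR 4.0.16 (R 4.3.3) with glmQLFit and glmQLFTest over all 3 groups, two-sided, Benjamini-Hochberg adjusted p under 0.05. Tests at 7 days are read only for the 55 members whose direction the level condition left free. The script was tested on simulated data.

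Named genes were the 12 deepest dips, 6 highest levels, 6 largest rises and 6 largest falls at 7 days, 5 nearest control, 3 on either side of the threshold, members on a list, and examples of each role by depth, leaving out predicted genes. Alternatives covered scaling (DESeq2 1.42.0 size factors, library total, upper quartile), filters, DESeq2, limma-voom (limma 3.58.1), groups in the fit, thresholds, thinning, GC, a replicate block and leaving out each sample. Exact 95% intervals of count ratios cover counting error only. Muc2 and Muc3 were not analysed here, and 1 member that the rule would name is not reported here.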

Additional observations from a re-analysis of the deposited data

How the results depend on the processing

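The rule found 79 genes, and 74 with TMM factors or 58 with upper-quartile factors. It found 44 with library totals alone, 132 at a fold threshold of 1.3, 55 at 1.5 and 10 at 2.0. Leaving out 1 sample gave 76 to 97. At 7 days against control the count of members past the edgeR threshold and higher, which includes 20 whose direction the rule fixed, ran from 37 to 49 and leaving out 1 sample gave 47 to 49. The count called lower, 10 in edgeR, was 29 with library totals alone and ran from 6 to 10 when 1 sample was left out. It was 6 without control replicate 2, where P2ry6, App, Sh3tc2 and Engase were no longer called. Ank, higher by 0.18 (log2, adjusted p = 0.035), fell to 0.14 without control replicate 1. DESeq2 called 49 higher and 8 lower, and limma-voom 48 and 10.

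With library totals alone 12 of the members whose call changed also changed sign. Their log2 fold changes were Rtkn -0.28, Angptl4 -0.38, Phactr2 -0.31, Il1rap -0.37, Ank -0.22, Gpt2 -0.30, Abhd12 -0.33, Src -0.39, Ripor1 -0.37, Scml4 -0.033, Krt4 -0.37 and Tbc1d24 -0.0009. Sign changes in members whose call stayed the same are not in this count. Samples with the same replicate number correlated at -0.13 to 0.48 in their deviations from group means, and samples with different numbers at -0.44 to 0.17. The highest values, 0.48 for number 3 and 0.33 for number 1, joined a control with a 7 days sample. Structure shared by number is therefore not excluded for that comparison, although the main fit used no pairing. Of the 55 members whose direction the level condition left free, leaving out 1 sample gave 27 to 29 higher and 5 to 8 lower. With the replicate number as a block, 49 members were higher and 11 lower, Tle3 among the higher (adjusted p = 0.029).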
